A study of Mus musculus with 4 samples.

Results

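Pitx1 binding was described around 2 genes of the posterior limb bud, Shh and Hand2, in mouse hindlimb buds. The embryos were wild type, of the ICR strain, and of age E11.5. The Shh window was 1.25 Mb of chromosome 5, chr5:28600000-29850000 in mm9. It starts 0.190 Mb below the stated position of Shh, at about 28.79 Mb. From there it was set to reach Lmbr1, the gene that holds the limb enhancer of Shh. The Hand2 window was 1.00 Mb of chromosome 8, chr8:59300000-60300000, with Hand2 at about 59.80 Mb. A peak belonged to a window by its midpoint. A replicated region is the union of peaks of both Pitx1 chromatin immunoprecipitation (ChIP) libraries that overlap by at least 1 bp. The windows held 62 peaks of the 2 lists and 17 of the 10274 replicated regions of the series. All 4 libraries of the series came from the same strain, tissue and age. Pitx1 was precipitated in 2 of them, the other two are input, and only the ChIP libraries have a peak list. Material from 3 ChIPs was used for the libraries, and the labels do not say that the replicates came from separate litters, so their differences may be technical.

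Sonic hedgehog, the product of Shh, is secreted by cells at the posterior margin of the limb bud and sets the number and identity of digits. Its limb expression depends on a distant enhancer, the zone of polarizing activity regulatory sequence (ZRS), which lies in an intron of Lmbr1. Hand2 is a basic helix-loop-helix transcription factor of the posterior limb bud that acts upstream of Shh and binds the ZRS. Pitx1 is a homeodomain transcription factor of the hindlimb, absent from the forelimb. It belongs to the class that recognises the bicoid-type site TAATCC.

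The bases of the peaks were not analysed here, because no genome of the build of the lists was used. The promoter of Hand2 is printed because peaks of replicate 2 lay at the stated position of the gene. A replicate 2 peak also lay at the stated position of Shh, but the promoter set used has no entry for Shh. It is given as the 250 bases before the start of Hand2, from RefSeq on GRCm38.p6 (chr8:57320733-57320982, plus strand). These coordinates are not those of the peak lists. Capitals mark the homeodomain core TAAT and its reverse complement ATTA.
Hand2: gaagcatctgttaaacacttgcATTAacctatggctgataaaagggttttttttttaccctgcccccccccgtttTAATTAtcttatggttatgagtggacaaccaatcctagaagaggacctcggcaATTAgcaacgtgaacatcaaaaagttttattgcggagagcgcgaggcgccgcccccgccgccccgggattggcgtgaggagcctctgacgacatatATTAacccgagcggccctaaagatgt
The stretch held 5 core matches on the 2 strands, of which a TAAT and an ATTA overlap in TAATTA, and 0 matches to TAATCC or its reverse complement GGATTA. Of 32851 RefSeq promoter stretches of this length, 54.9% held a core, 5.54% held 5 or more, and 6.25% held a TAATCC on either strand. Each TAATCC also contains a TAAT. These matches describe the letters and do not show where Pitx1 binds.

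The 2 windows differed widely in Pitx1 peaks. The Shh window held 3 peaks of replicate 1, 5 of replicate 2 and 2 replicated regions. The Hand2 window, although shorter, held 17 peaks of replicate 1, 37 of replicate 2 and 15 replicated regions. Per Mb this was 1.6 replicated regions around Shh (95% exact Poisson interval 0.194 to 5.78) and 15 around Hand2 (interval 8.40 to 24.7), against 4.11 over the 19 autosomes. The Hand2 window was thus 9.38 times as dense as the Shh window in replicated regions, 7.08 times in replicate 1 peaks alone and 9.25 times in replicate 2 peaks alone.

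Hand2 stood above the autosomal rate in each list. Its density was 3.65 times that of the autosomes in replicated regions (interval 2.04 to 6.02), 2.88 times in replicate 1 peaks (1.68 to 4.61) and 3.69 times in replicate 2 peaks (2.60 to 5.09). At the autosomal rate 4.11 replicated regions would fall in such a window, and at the rate of the rest of chromosome 8 the number is 4.28. For Shh the ratios were 0.389 (0.0471 to 1.41), 0.407 (0.0839 to 1.19) and 0.399 (0.130 to 0.932), with 5.14 replicated regions at the autosomal rate. The interval of the replicated regions around Shh includes 1, so a lower density than on the autosomes was not resolved for them. The intervals take in counting error alone, and clustered peaks would widen them. The windows were proposed with results of these lists known, and no p-value is given.

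Windows of the same lengths, laid end to end over the autosomes, showed how common such counts are. Of 2460 windows of 1.00 Mb, 70 (2.85%) held 15 or more replicated regions, the median was 3 and the highest count was 34. Counts as high as that around Hand2 were thus uncommon, although denser windows exist. Of 1966 windows of 1.25 Mb, 685 (34.8%) held 2 or fewer replicated regions and 257 (13.1%) held 0, with a median of 4. A count as low as that around Shh was thus common.

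**Figure D1:**
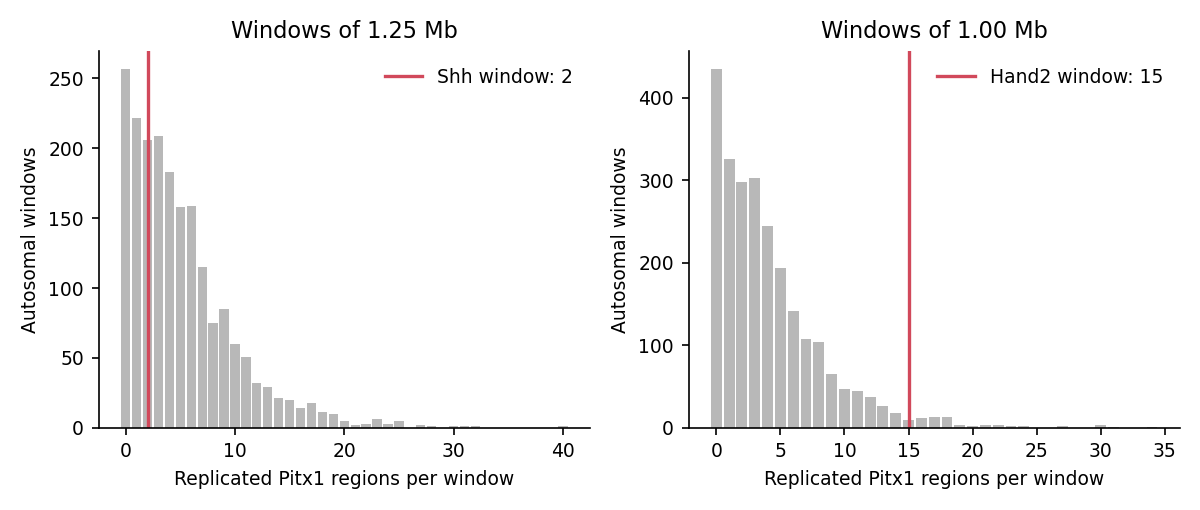
Histograms of replicated Pitx1 regions (x axis, count) in autosomal windows laid end to end (y axis, number of windows), for windows of 1.25 Mb on the left and 1.00 Mb on the right. Red lines mark the Shh window, at 2 regions in the bulk of its distribution, and the Hand2 window, at 15 regions in the upper tail.

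Sharing between replicates did not differ from that over the autosomes beyond counting error. Around Hand2, 15 of 17 replicate 1 peaks were shared, that is, met a replicate 2 peak (88.2%, 95% Wilson interval 65.7 to 96.7%), against 69.9% of all autosomal replicate 1 peaks, a value inside the interval. Of the 37 replicate 2 peaks 16 were shared (43.2%, interval 28.7 to 59.1%), against 42.6% on the autosomes. Around Shh, 2 of 3 replicate 1 peaks (66.7%, interval 20.8 to 93.9%) and 2 of 5 replicate 2 peaks (40%, interval 11.8 to 76.9%) were shared. With so few peaks the shares around Shh say little. The Hand2 window therefore stood apart in the number of its peaks and not measurably in how well they recurred.

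The strongest region of the Shh window lay far from Shh, near the end of the window. It spanned 569 bp, from 29794618 to 29795186, about 1000 kb from the stated position of the gene. Its deposited peak score was 265 in replicate 1 (rank 1018 of 14753) and 1085 in replicate 2 (rank 129 of 25027), where a higher score is a stronger peak and scores are compared within a list only. By the sum of its ranks it was at place 432 of the 10274 replicated regions, in the best 4.20%. The midpoints of its 2 peaks differed by 19 bp. The deposited list of 1 bp positions has an entry in it, but so it has in 99.7% of autosomal replicated regions. How that list was made is not known here, so the entry is not separate support. A further peak of replicate 2 alone stood beside it, from 29793419 to 29793866, with a score of 275 and 0.751 kb from the nearest replicate 1 peak. In the gene order of GRCm38, Lmbr1 is followed by Nom1 and then Mnx1, a homeobox gene of motor neurons. Which gene lies nearest to the region was not analysed here.

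The other replicated region of the Shh window lay on the opposite side of the gene and was weak. It spanned 667 bp, from 28643100 to 28643766, about 150 kb from the stated Shh position towards lower coordinates, where Rbm33 and Cnpy1 are the next genes in GRCm38. Its scores were 66.0 in replicate 1 (rank 10006) and 74.0 in replicate 2 (rank 15471). That put it at place 8785 of the replicated regions. So the window held 1 strong and 1 weak region, and neither lay within 100 kb of Shh.

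No replicated region was found between these, over a stretch of 1151 kb from 28643767 to 29794617 that holds Shh. Of the 10126 gaps between neighbouring autosomal regions, 341 (3.37%) were at least as long, and the median gap was 87.9 kb. Long gaps take up much of the genome, and 27.9% of the autosomal length lay in gaps of at least this size. The stretch was not empty in either list. It held 1 replicate 1 peak and 3 replicate 2 peaks, none of them shared. Of the 3, the one from 29793419 has been given above.

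A peak at Shh itself was called in replicate 2 alone. It ran from 28787146 to 28787583, within 10 kb of the stated position, with a score of 90 (rank 12047 of 25027). Replicate 1 had no peak within 143 kb, and this was the one peak of either list within 100 kb of that position. In replicate 1 alone, a peak with a score of 82.4 (rank 7215) lay from 29112046 to 29112677, about 320 kb from Shh on the Lmbr1 side. The nearest replicate 2 peak was 324 kb from it. Each of these middling peaks therefore stood far from any peak of the other library.

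Replicate 2 also had 1 weak peak from 29641777 to 29642311, about 850 kb from Shh towards Lmbr1. Its score of 54.4 was near the lowest score of that list, 50, and its rank was 22540 of 25027. It was 152 kb from any replicate 1 peak. The exact mm9 position of the ZRS was not used here, so whether this peak covers the enhancer was not tested.

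**Figure D2:**
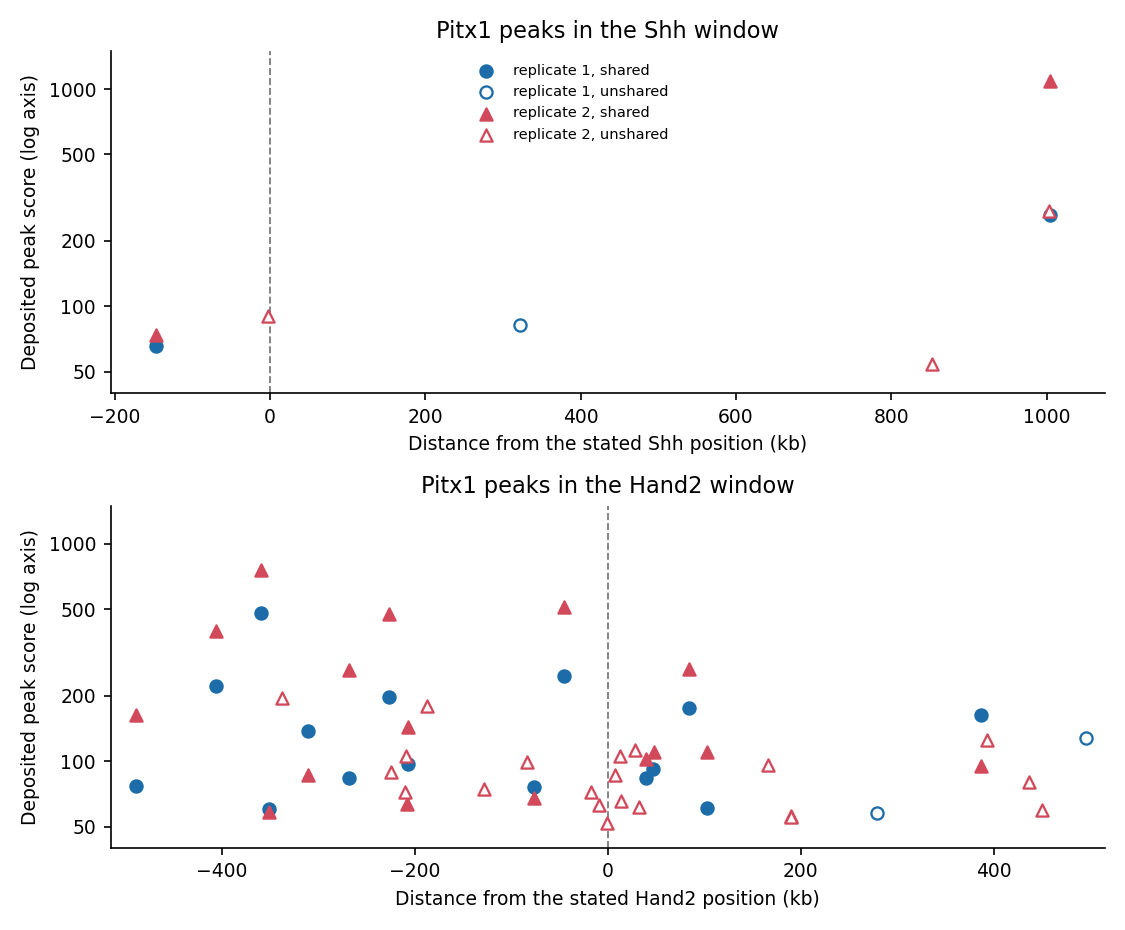
Deposited peak scores (y axis, log scale) against distance from the gene position stated for each window (x axis, kb), with Shh above and Hand2 below. Circles are replicate 1, triangles are replicate 2, filled symbols overlap a peak of the other replicate and the dashed line is the gene. The Shh panel holds 8 peaks, with the highest score of 1085 near 1000 kb, and the Hand2 panel holds 54 peaks on both sides of the gene.

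Around Hand2 the replicated regions lay on both sides of the gene, with more on the side of lower coordinates, which is upstream of the gene on GRCm38. There were 10 regions on that side (20 per Mb, interval 9.59 to 36.8) and 5 on the other (10 per Mb, interval 3.25 to 23.3). These intervals overlap. In steps of 250 kb from the start of the window the counts were 6, 4, 4 and 1. Replicate 1 peaks had 6, 4, 4 and 3 in these steps, and replicate 2 peaks had 7, 14, 12 and 4. The last step was the poorest in each. In the gene order of GRCm38, Fbxo8 comes before Hand2 and Scrg1 after it. Which gene lies nearest to each replicated region was not analysed here, so the regions are called after the window only.

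The strongest region of the Hand2 window spanned 1265 bp, from 59440616 to 59441880, about 360 kb from the gene on the upstream side. Its scores were 481 in replicate 1 (rank 232 of 14753) and 758 in replicate 2 (rank 348 of 25027). It was at place 207 of all replicated regions, in the best 2.01%, and was the strongest of the window in either list alone. The peaks agreed closely in place, with midpoints 7 bp apart.

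The region nearest to the gene among the strong ones lay about 50 kb upstream, from 59754502 to 59755359. It scored 246 in replicate 1 (rank 1194) and 514 in replicate 2 (rank 820), which made it the second in the window and place 751 overall. Next in order was the widest region of the window, 1939 bp from 59572682 to 59574620, about 230 kb upstream, with scores of 198 and 478 (ranks 1771 and 959). The fourth, from 59393769 to 59394974 and about 410 kb upstream, scored 223 and 396 (ranks 1408 and 1400). All 4 of these strongest regions were on the upstream side.

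On the other side of Hand2 the strongest region ran from 59883908 to 59884707, about 80 kb from the gene, and was the fifth of the window. It scored 177 in replicate 1 (rank 2160) and 266 in replicate 2 (rank 2696). A pair of moderate regions stood closer to the gene, about 40 kb away from 59839580 to 59840504 (scores 84.2 and 103) and about 50 kb away from 59847022 to 59847738 (scores 91.8 and 111). They were 6.52 kb apart, the shortest gap in the window. The most distant region on this side, from 60186146 to 60186815 and about 390 kb from the gene, scored 163 and 94.8. It was the sixth of the window in replicate 1 and only the 12th in replicate 2.

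4 more regions upstream were of middling strength. The one from 59531108 to 59532581 was 1474 bp wide and scored 83.4 in replicate 1 (rank 7096) and 262 in replicate 2 (rank 2754). That from 59591988 to 59593260 scored 97.0 and 143, and 2 peaks of replicate 2 fell into its single replicate 1 peak. The region from 59311264 to 59311989, about 490 kb from Hand2, scored 76.8 and 164. From 59488411 to 59489610 the scores were 138 and 86.3, and here the rank was better in replicate 1 (the best 22.1% of its list, against 50.7% in replicate 2). The order within the window thus depended on the library for the middling regions and not for the strongest one.

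The remaining 3 regions were the weakest, with sums of ranks from 20647 to 32186. They lay from 59902370 to 59902973, from 59723660 to 59724198 and from 59448904 to 59449640. The last of these was at place 9895 of 10274 although it stood only 7.02 kb from the strongest region of the window. Strong and weak regions were therefore neighbours in this window. Of all 15 regions, 3 were in the best 10% of the replicate 1 list and 4 in the best 10% of the replicate 2 list. The same share over all replicated regions was not computed, and shared peaks score higher than unshared ones. On the autosomes the medians were 97.7 for shared and 64.1 for unshared peaks of replicate 1, and 145 and 71.6 in replicate 2. The counts are therefore not to be read against 10%. Each of the 15 held a position of the deposited list, as did 99.7% of autosomal replicated regions.

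Strength varied widely among the Hand2 regions. By place among all replicated regions they ran from the best 2.01% to 96.3%, with a median of 50.9%, so the window held strong, middling and weak regions, centred near the middle of the whole set. Spearman's rho between the scores of the 15 regions in the 2 libraries was 0.729, against 0.559 over 10145 autosomal regions. Both are descriptions across regions of the same 2 libraries. As a percent of each list, the rank was better in replicate 2 for 11 of the 15 regions (73.3%), against 65.5% of autosomal replicated regions. By plain rank it was better there for 6 of the 15, against 39.8% on the autosomes. Median width was 858 bp, against 863 bp on the autosomes. The peak of replicate 1 was the wider in 13 of 15 (86.7%), against 92.4% of autosomal regions.

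**Figure D3:**
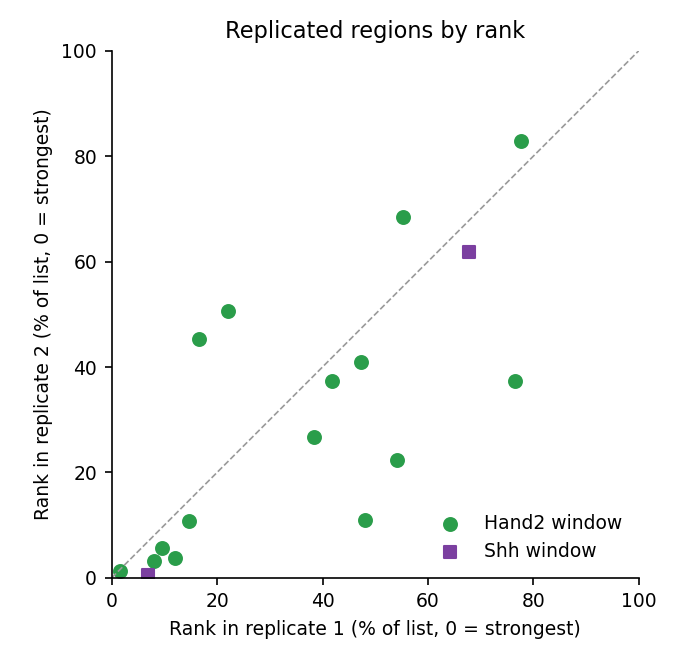
Rank of each replicated region in replicate 1 (x axis) and replicate 2 (y axis), as a percent of the list with 0 the strongest, for 15 Hand2 regions (circles) and 2 Shh regions (squares). The dashed line marks equal percents, and 11 of the 15 Hand2 regions (73.3%) lie below it, against 65.5% of autosomal replicated regions.

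The replicated regions of the Hand2 window were also close to each other. The 14 gaps between them had a median of 39.4 kb, against 87.9 kb over the autosomes, and 12 of the 14 were under the autosomal median. Denser windows are bound to have shorter gaps, so this restates the count as a distance. The longest gap, 283 kb, ran from 59902974 to 60186145 on the far side of the gene. Replicated regions covered 14.9 kb of the Hand2 window (1.49% of its length) and 1.24 kb of the Shh window (0.0989%), against 0.390% of the autosomes.

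**Figure D4:**
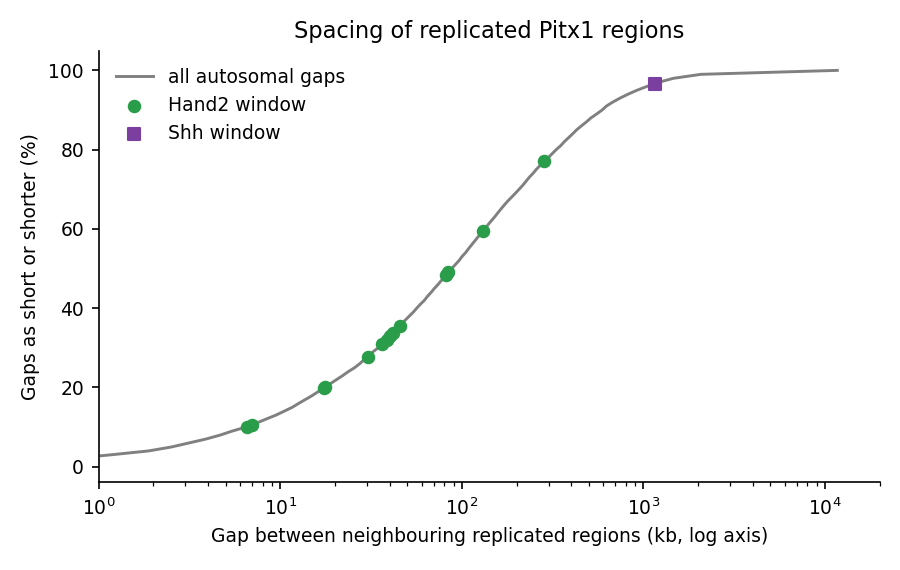
Share of gaps as short or shorter (y axis, percent) against the gap between neighbouring replicated regions (x axis, kb, log scale), with the autosomal curve in grey. The 14 Hand2 gaps (circles) lie mostly in the lower part of the curve, and the single Shh gap (square), 1151 kb, lies at 96.6%.

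At Hand2 itself the libraries differed. Between the replicated regions at 59754502 and 59839580, a stretch of 84.2 kb that holds the stated gene position, replicate 1 had 0 peaks. Replicate 2 had 8, within 50.6 kb from 59782423 to 59833003. Their scores ran from 52.1 to 113 with a median of 68.8, under the median of that list (87.6). It was near the median of all unshared autosomal peaks of replicate 2, 71.6. One of the 8, from 59799559 to 59800011 with a score of 52.1 (rank 23785), was the peak nearest to the stated position. The best scored ran from 59827755 to 59828305 (113) and from 59811984 to 59812843 (106).

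Such a row of peaks in replicate 2 alone was uncommon. Of 6840 autosomal runs of unshared replicate 2 peaks with no replicate 1 peak among them, 94 (1.37%) held 8 or more. Only 3 of the 6840 packed 8 or more into 50.6 kb or less, the one at Hand2 included. The longest run on the autosomes held 14 peaks. When replicate 2 was limited to as many best peaks as replicate 1 has, 3 of the 8 were left, so most of them were weaker than the 14753 best of that list. The run was singled out after its peaks were seen, and the cut-offs of 8 peaks and 50.6 kb are its own values. It lies in a window dense in replicate 2 peaks, as only 29 of 2460 autosomal windows of 1.00 Mb (1.18%) held as many. Runs in windows of like density were not compared, so the rarity may partly restate that count. Whether replicate 1 lacked signal there or fell under the caller's threshold was not tested, as read counts were not used here.

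Other peaks found in 1 library only stood in several parts of the Hand2 window, some of them beside a shared peak. For unshared replicate 2 peaks the distance to the nearest replicate 1 peak ran from 0.487 kb (the peak from 59591009) to 87.1 kb (the peak from 59990120). Replicate 2 had 21 unshared peaks in all, with a median score of 80.4, against 127 for its 16 shared peaks. On the autosomes the medians were 71.6 for unshared and 145 for shared peaks of this library. The best scored unshared peak of replicate 2 ran from 59462566 to 59463134, about 340 kb upstream of Hand2, with a score of 195 (rank 4354), and was 12.9 kb from the nearest replicate 1 peak. Replicate 1 had 2 unshared peaks. These lay at the poor end of the window, from 60294894 to 60295503 (score 128, rank 3660) and from 60078982 to 60079502 (score 58.0, rank 12177).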

How the data were processed

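Pitx1 ChIP-seq peak lists of 2 libraries were used. The deposited scores and coordinates are on mm9, and the submitters' processing notes name MACS 1.4.2, Bowtie 0.12.8, bedtools 2.16.2 and CASAVA (1.7, 1.8.2) without roles. The deposited peak score is the value the caller gave each peak, called per library to judge by the names in each list, and how the input was used is not known here. Another deposited list gives 10625 positions of 1 bp with no score. Depth per library is unknown. Replicated regions, counts by midpoint and density up to the last peak of each autosome were computed. Exact Poisson and Wilson intervals (95%) were used with no test. All regions were described by position, and of the Hand2 regions the 12 with the lowest sum of ranks in most detail. The best scored unshared peaks and the peak nearest each gene were named by rule, and the others were chosen after their values were seen. Gene positions are approximate, and distances were rounded to 10 kb. The windows and choices were made with earlier results of these data known. Gene order and the Hand2 promoter came from RefSeq on GRCm38.p6, with no conversion between builds. The promoter table was matched by symbol, with 1 entry used. Shh had 0 entries, and the 1 entry of Lmbr1 was left out. Peak sequences and annotation on mm9 were not analysed here, so other hedgehog pathway genes were not placed. Counting was checked on simulated lists. Python 3.11.15, pandas 2.3.3, numpy 2.4.6, scipy 1.17.1 and matplotlib 3.10.9 were used.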

Additional observations from a re-analysis of the deposited data

How the results depend on the processing

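No paired analysis was possible because no peaks are listed for input, the only group with the same replicate numbers. The density of the Hand2 window stayed above that of the autosomes under all 12 alternatives, at 2.88 to 4.54 times, and that of the Shh window stayed below it under all 12, at 0.236 to 0.706 times. The alternatives largely reuse the same 2 lists and are not separate evidence. Among them is the count of 1 bp positions, which 99.7% of autosomal replicated regions hold. The lowest and the highest Shh ratio each rest on 1 region, so a lower density of replicated regions around Shh stays unresolved. Counts of replicated regions depended on the list. Around Shh 1 region was left in the best 50% and the best 25% of both lists by score, and with equal numbers of best peaks, sets that hold fewer peaks. Around Hand2 5 of the 15 regions were left in the best 25%, and 10 in the best 50%. In the whole series 2821 and 5485 were left of 10274, so the loss was not particular to the window. With each replicate left out in turn, the other list had 3 to 5 peaks around Shh and 17 to 37 around Hand2. The share of replicate 1 peaks that were shared was 100% around Shh and 62.5% around Hand2 in the best 25%, the former from a single peak. In the whole series the best 25% held 3688 replicate 1 peaks and 2821 replicated regions. The autosomal share was not computed for this set, so the 2 window shares have no direct background here and are not to be set against 69.9%. Of the 8 Hand2 peaks in that set 3 were unshared, 2 of which lost their partner to the stricter choice. The other shares moved within their intervals. The strongest region of each window was the same in either list alone. As depth is unknown, peaks of a single library cannot be told from missed calls.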
